A study of Mus musculus with 14 samples.

Results

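The genes described here are 10 regulators of mitochondrial biogenesis in mouse muscle. Ppargc1a and Ppargc1b are the PGC-1 coactivators, and Esrra, Esrrg, Nrf1 and Gabpa are their partner transcription factors. Tfam, Tfb2m and Polrmt transcribe mitochondrial DNA, and Tfb1m, a relative of Tfb2m that methylates ribosomal RNA, is grouped with them. All 10 were chosen by gene symbol, without use of their measured values, and 9 of the 10 were measured among 19505 genes in all. Esrra had no probeset paired with it in the annotation used here and was not analysed. RNA came from gastrocnemius, a calf muscle built mostly of fast fibres, of 14 mice, with 1 array per mouse. The study's mice were male C57BL/6 carrying subcutaneous Panc02 pancreatic tumors. Of the 14, 7 ate the control diet (AIN-93G) and 7 that diet supplemented with HMB (β-hydroxy-β-methylbutyrate, formed in the body from leucine), which began before the tumor cells were injected. Mice with established tumors were given anti-PD1 by the protocol text of the labels and anti-PD1 or an isotype antibody by the methods, and no label says which applied to these mice. Age at sampling is not in the labels.

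Mitochondria are built from proteins of both genomes, so a cell that makes more of them has to raise nuclear and mitochondrial transcription together. PGC-1α, encoded by Ppargc1a, does not bind DNA itself: it is drawn to promoters by nuclear receptors such as the estrogen-related receptors and by the nuclear respiratory factors, and in skeletal muscle it is known for its induction by endurance exercise and for its part in the oxidative fibre program. One product of that program is TFAM, which enters the mitochondrion, packs its DNA and, with TFB2M and the polymerase POLRMT, starts its transcription.

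All values below are the deposited array values, read as log2, with a mean ± SD over n = 7 mice per diet. Because the processing behind them is not stated, differences are in log2 units and are not turned into folds, and the level of a gene is not set against that of another. Each array also carries 5222 negative control probesets, and their 95th percentile, 10.53 to 10.87 over the arrays, serves as a background mark: 3 of the 9 regulators lay above it on all 14 arrays (Ppargc1a, Gabpa and Tfb2m), 3 on some arrays (Tfam on 13, Nrf1 on 9 and Esrrg on 3) and 3 on none (Ppargc1b, Tfb1m and Polrmt), although all 9 exceeded the median of the negative controls on every array. The tissue label was borne out by 10 fast fibre markers, whose mean was 17.89 to 18.28 over the 14 arrays. Control 7 stood apart from the other arrays. Its median correlation with them was 0.960 (0.977 to 0.986 for the rest), and its mean of 7 B cell markers was 11.12 against 3.45 to 4.33 elsewhere. Its T cell marker mean, 10.02, and adipocyte marker mean, 11.92, were the highest as well. For that reason differences between the diets for the regulators, and for the lists and list genes named below, are also given without control 7 where it moves them by over 1.5 times. Markers with a higher mean in HMB were 0 of 7 for B cells (4 without control 7), 0 of 8 for T cells (1 without it) and 2 of 8 for adipocytes (8 without it). They were 4 of 7 for macrophages, 1 of 5 for fibroblasts (0 without control 7) and 2 of 6 for endothelium. For fast fibres they were 8 of 10. For slow fibres they were 7 of 9, with a median of 0.17 (0.28 without control 7). The slow fibre mean was 7.01 to 14.06 in control and 8.38 to 15.63 in HMB. Schwann cell markers were lower in HMB in 5 of 5, with a median of -0.88. Without control 7, 1 of the 5 was higher and the median was -0.78. Of the 5, 3 had an unadjusted p under 0.05 by limma, as had 4.54% of all 19505 genes. Under the background mark on all arrays lay 3 of the 5. The Schwann cell marker mean was 8.25 to 8.79 in control and 6.57 to 8.29 in HMB. After adjustment 0 markers of these lists passed, and their part in the values below was not tested.

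HMB was compared with control to ask whether the supplement was accompanied by other levels of these regulators. None of the 9 differed between the diets beyond the spread between mice. By limma, 0 of the 9 passed the threshold of 0.05 on p-values adjusted over all genes, and 0 had an unadjusted p under it; across all 19505 genes limma called 0 (0% of genes) after adjustment and 885 (4.54%) before it. The mean was higher in HMB for 5 of the 9 and lower for 4, where 51.7% of all genes were higher, and with each array centred on its median the split was 8 of 9, where 64.2% of all genes were and Gabpa, Tfam and Tfb1m changed sign. That count was also 8 of 9 without control 1 and without HMB 4. The median difference of the regulators was 0.029, against 0.0090 over all genes. Without control 7 it was 0.031 with 6 of 9 higher, against -0.00067 and 49.8% over all genes. In all 9 the 2 diets overlapped, as they did in all but 19 of the 19505 genes.

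**Figure D1:**
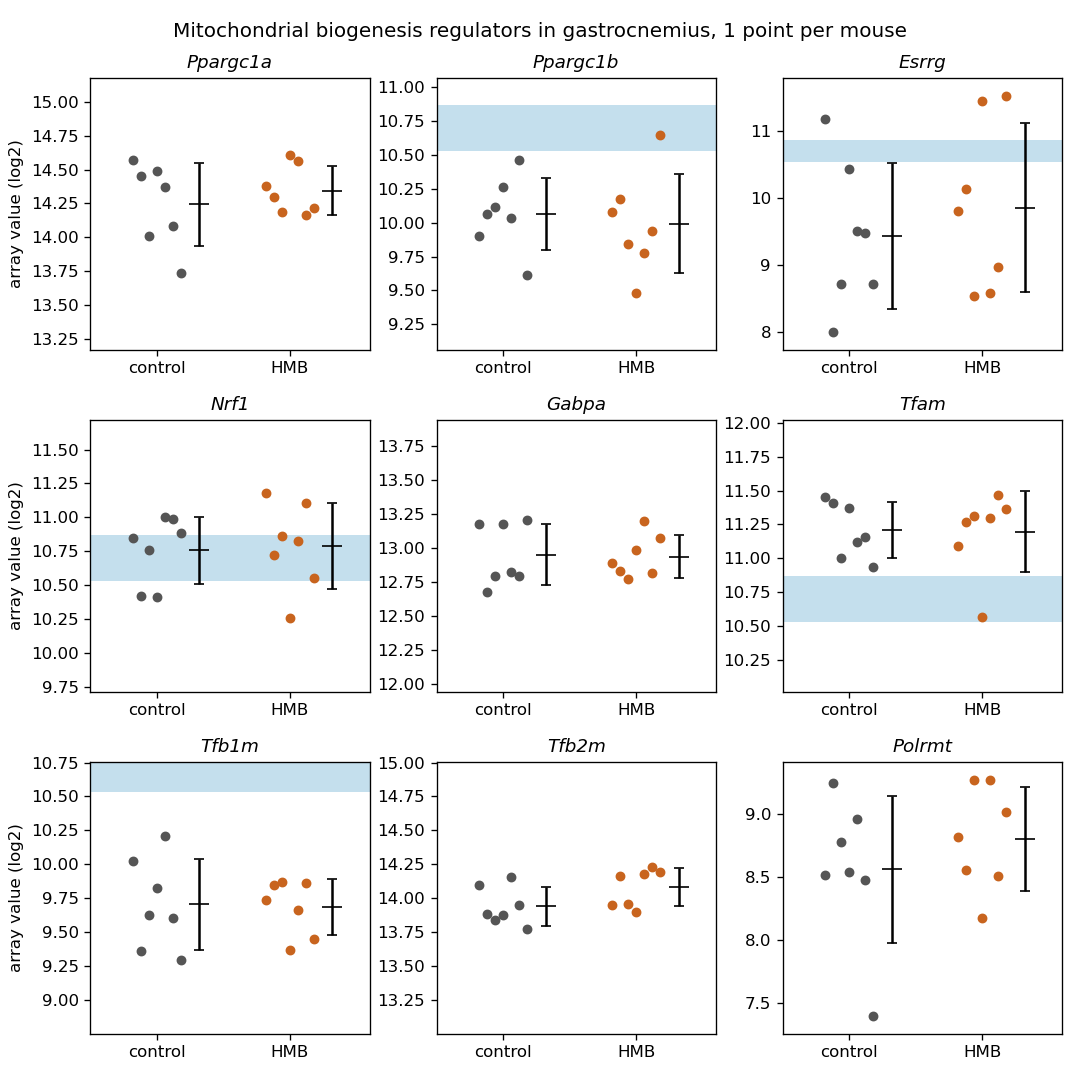
Array value (log2) of each of the 9 measured regulators in 7 control (grey) and 7 HMB (orange) mice, with the mean and SD beside each group; every axis spans at least 2 log2 units and the blue band, where it falls within the axis, is the range over arrays of the 95th percentile of the negative controls. The diets overlap in every panel, as in all but 19 of the 19505 genes, and Esrrg spreads over 3.53 log2 units.

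The coactivators come first in the pathway. Ppargc1a was at 13.74 to 14.57 in control mice, with a median of 14.37, and at 14.17 to 14.61 in HMB mice, with a median of 14.30. The HMB values thus fell inside the control range, apart from HMB 4, which was the highest of all 14. The HMB median was under the control median. The means were 14.24 ± 0.31 and 14.35 ± 0.18, a difference of 0.10 (95% interval -0.21 to 0.42, limma adjusted p = 0.995). The lowest mouse was control 7, and without it the difference was 0.017. Ppargc1b encodes PGC-1β, a related coactivator found at a steadier level in oxidative tissues. Its values were 9.61 to 10.46 with a median of 10.06 in control and 9.48 to 10.65 with a median of 9.94 in HMB, all under the background mark of their array. HMB mice held both the lowest value (HMB 4) and the highest (HMB 7), and the difference was -0.074 (95% interval -0.45 to 0.30, limma adjusted p = 0.996). Single mice moved it from -0.18 (without HMB 7) to 0.011 (without HMB 4), so its sign is not settled, and without control 7 it was -0.15.

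Esrrg, which encodes the estrogen-related receptor ERRγ, a nuclear receptor that drives oxidative metabolism and is known for its abundance in slow muscle, varied most among the regulators. It ranged from 7.996 to 11.17 with a median of 9.48 in control mice and from 8.53 to 11.52 with a median of 9.80 in HMB mice. Control 1, HMB 4 and HMB 7 stood above 11, and control 2 was lowest. The diets differed by 0.43 (9.43 ± 1.09 and 9.86 ± 1.26, 95% interval -0.79 to 1.64, limma adjusted p = 0.993), well within that spread, and the difference was 0.15 without HMB 7, 0.16 without HMB 4 and 0.72 without control 1. The SD within groups, 1.18, exceeded that of 98.7% of the 1434 genes whose mean lay within 0.5 of that of Esrrg.

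Nrf1 encodes nuclear respiratory factor 1, an activator of nuclear genes for the respiratory chain, and should not be confused with the stress factor Nfe2l1, which has been given the same short name. It was at 10.41 to 11.001 (median 10.85) in control and 10.25 to 11.18 (median 10.83) in HMB, a difference of 0.029 (95% interval -0.31 to 0.37, limma adjusted p = 0.996). It was 0.050 without control 7 and 0.12 without HMB 4, and it fell below 0 without control 2, control 4, HMB 1 or HMB 6 (lowest -0.036). HMB 4, which had the highest Ppargc1a, had the lowest Nrf1. Gabpa encodes the DNA-binding subunit of GABP, also called nuclear respiratory factor 2. It was among the steadiest, at 12.68 to 13.20 (median 12.82) in control and 12.77 to 13.20 (median 12.89) in HMB. The means, 12.95 ± 0.23 and 12.94 ± 0.16, differed by -0.012 (95% interval -0.28 to 0.26, limma adjusted p = 0.998), and without control 7, the highest control mouse, by 0.031.

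**Figure D2:**
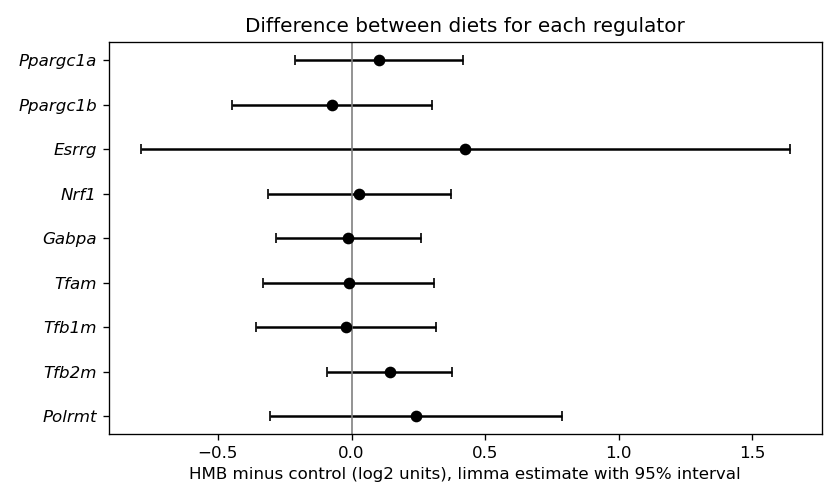
HMB minus control for each of the 9 measured regulators in log2 units (points, limma estimates over 14 arrays) with 95% intervals (bars). Every interval contains 0; that of Esrrg, -0.79 to 1.64, is the widest, and that of Tfb2m, -0.091 to 0.38, the narrowest.

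Tfam, Tfb1m, Tfb2m and Polrmt are targets of this program as well as parts of it. Their promoters are known as places where NRF1 and GABP bind, so promoter windows of measured regulators that hold the letters of either motif are shown. For the 9 regulators with a window in the RefSeq promoter table (build GRCm38.p6; 13 windows, since some genes have several start sites, and Esrra included), the 250 bases before the start were searched on both strands for GCATGCGC (NRF1), CCGGAAG (GABP), AAGGTCA (ERR) and TGACGTCA (the cAMP response element). None of these motifs contains another. CCGGAAG was found in 3 of the 13 windows (Tfam, Polrmt and Gabpa) and in 6.91% of all 32851 windows of that table. GCATGCGC was found in 2 of the 13 (Polrmt and Esrra) and in 2.26% of all windows. The windows of Tfb1m and Tfb2m held neither, and Ppargc1b had no window. AAGGTCA (4.08% of all windows) and TGACGTCA (1.55%) were found in none of the 13. The motif letters were chosen with these windows in view, and a match is a description of the letters. The Tfam, Polrmt and Gabpa windows follow, 5′ to 3′ along the gene, with the matches in capitals. The Tfam window (chr10:71238045-71238294, minus strand) has CCGGAAG beginning 47 bases before the start, the Polrmt window (chr10:79746582-79746831, minus strand) has the NRF1 letters 133 bases and the GABP letters 43 bases before it, and the Gabpa window (chr16:84834874-84835123, plus strand) has the GABP letters 93 bases before it.
Tfam: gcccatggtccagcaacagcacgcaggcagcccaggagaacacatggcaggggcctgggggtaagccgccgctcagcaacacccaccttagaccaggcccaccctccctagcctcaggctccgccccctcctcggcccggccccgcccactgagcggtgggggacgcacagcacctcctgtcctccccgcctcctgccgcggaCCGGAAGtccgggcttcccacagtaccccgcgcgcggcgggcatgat
Polrmt: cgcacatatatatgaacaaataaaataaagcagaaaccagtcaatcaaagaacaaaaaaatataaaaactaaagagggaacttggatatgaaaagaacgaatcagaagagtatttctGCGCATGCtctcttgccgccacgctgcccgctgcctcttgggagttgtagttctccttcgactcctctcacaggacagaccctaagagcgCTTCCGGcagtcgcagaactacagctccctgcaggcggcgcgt
Gabpa: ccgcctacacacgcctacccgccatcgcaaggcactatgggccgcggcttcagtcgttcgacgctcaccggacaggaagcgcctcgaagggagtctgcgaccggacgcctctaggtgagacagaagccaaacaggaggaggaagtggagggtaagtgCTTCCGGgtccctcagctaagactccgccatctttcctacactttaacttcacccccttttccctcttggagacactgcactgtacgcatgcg

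Tfam, the packaging protein and transcription activator of mitochondrial DNA, was at 10.94 to 11.46 (median 11.16) in control and at 10.57 to 11.47 (median 11.30) in HMB. A single mouse, HMB 4, lay below all the others, and the other 6 HMB mice were at 11.09 or above. The means were 11.21 ± 0.21 and 11.20 ± 0.30, a difference of -0.011 (95% interval -0.33 to 0.31, limma adjusted p = 0.999), and it was 0.094 without HMB 4 and -0.056 without control 7. Polrmt, the mitochondrial RNA polymerase, was measured under the background mark on all arrays, at 7.40 to 9.25 (median 8.54) in control and 8.17 to 9.27 (median 8.82) in HMB. Here control 7 was the lowest mouse by more than 1 log2 unit among controls, whose next value was 8.48. The difference of 0.24 (95% interval -0.30 to 0.79, limma adjusted p = 0.990) was 0.048 without it.

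Tfb2m melts the promoter for the polymerase, while Tfb1m, its relative, methylates the small ribosomal RNA of the mitochondrion. Tfb2m was the steadiest regulator (SD 0.14 in either diet), at 13.77 to 14.16 (median 13.89) in control and 13.90 to 14.23 (median 14.16) in HMB. It was above the control mean in 6 of 7 HMB mice, and it had the smallest p of the 9: the difference was 0.14 (95% interval -0.091 to 0.38, unadjusted p = 0.213 and adjusted p = 0.990 by limma). Left-out mice gave 0.11 (control 7) to 0.18 (control 5). Tfb1m was at 9.30 to 10.21 (median 9.62) in control and 9.37 to 9.87 (median 9.74) in HMB, under the background mark on all arrays. Its diets differed by -0.020 (95% interval -0.36 to 0.32, limma adjusted p = 0.998), by -0.089 without control 7 and by 0.063 without control 5.

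The transcripts of mitochondrial DNA itself are what POLRMT makes with TFAM and TFB2M. No probeset is paired with a gene of that genome in the annotation used here, but 9 unnamed probesets carry M in the place where 99.6% of 19572 named probeset IDs carry the RefSeq chromosome of their gene. They are described as a group, chosen after the table was seen. Their means over arrays were 13.75 to 19.32, with 7 of 9 above 18, close to the top of the arrays' range. All 9 had a higher mean in HMB, by 0.00076 to 0.11 with a median of 0.036 (without control 7, 8 of 9 and 0.036), and 0 passed limma over all gene probesets (smallest unadjusted p = 0.431, adjusted p = 0.986).

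Genes that work with the regulators were counted by direction of their mean. The clearest count was that of known PGC-1 and ERR targets in muscle (enzymes of the citric acid cycle, respiratory chain and fatty acid oxidation among them), of which 36 of 37 measured were higher in HMB, with a median of 0.11. No target passed limma after adjustment (0 of 37) or before it (0 of 37). Brightly measured genes leaned the same way: of the 3644 genes above the background mark on all arrays 60.8% were higher, with a median of 0.031. Control 7 had the lowest target mean of all mice (14.63, other controls 14.68 to 15.45, HMB 14.84 to 15.46), and without it 29 of 37 targets were higher, with a median of 0.047, beside 53.1% and a median of 0.0069 for those bright genes. The list was chosen with earlier results of these arrays known, so its direction is not independent evidence. The targets with the smallest p were the insulin-responsive glucose transporter Slc2a4 (14.57 ± 0.25 and 14.82 ± 0.12), the muscle form of a cytochrome oxidase subunit, Cox7a1 (14.96 ± 0.52 and 15.35 ± 0.19), and the kynurenine aminotransferase Kyat1 (11.12 ± 0.30 and 11.44 ± 0.33). Their unadjusted p-values by limma were 0.0726, 0.0812 and 0.0829, and the adjusted p was 0.990 for each. For Slc2a4 and Cox7a1 all 7 HMB mice lay above the control mean, and the Cox7a1 difference of 0.39 was 0.24 without control 7.

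**Figure D3:**
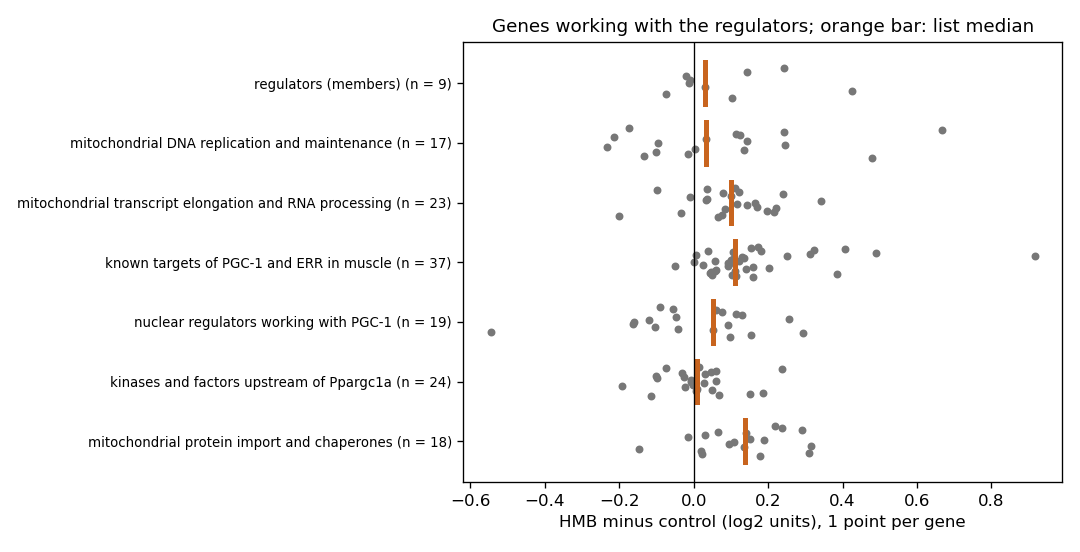
HMB minus control in log2 units for each measured gene (points) of the regulators and of 6 lists of genes that work with them, with the median of each list (orange bar). Medians lie between 0.0083 (upstream kinases and factors) and 0.14 (import and chaperones), and 36 of 37 PGC-1 and ERR targets are right of 0.

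Protein import and mitochondrial chaperones gave 16 of 18 higher with a median of 0.14 (without control 7, 12 of 18 and 0.060). The import pore Tomm40 (11.11 ± 0.28 and 11.42 ± 0.17), the matrix protease Clpp (11.74 ± 0.39 and 12.03 ± 0.11) and the import receptor Tomm20 (12.96 ± 0.16 and 13.13 ± 0.07) led that list, with unadjusted p-values of 0.0432, 0.0909 and 0.114 by limma and an adjusted p of 0.990 for each. In each all 7 HMB mice were above the control mean, and the Clpp difference of 0.29 was 0.16 without control 7. Transcript elongation and RNA processing in mitochondria gave 19 of 23 higher with a median of 0.10 (without control 7, 15 of 23 and 0.057), led by the RNA-binding protein Fastkd1 (difference 0.34), the poly(A) polymerase Mtpap (0.24) and Mterf4 (0.22). Of the 23, 8 were under the background mark on all arrays, Fastkd1 and Mterf4 among them, and Mtpap was above it on 6. In replication and maintenance of mitochondrial DNA the split was nearer even, 10 of 17 higher with a median of 0.034 (without control 7, 10 of 17 and 0.096). It held the smallest p of the lists, that of the pyrimidine nucleotide carrier Slc25a33 (7.56 ± 0.58 and 8.23 ± 0.26, difference 0.67, unadjusted p = 0.0116, limma adjusted p = 0.990). Atad3a (0.24) and the polymerase Polg (0.48) followed. Of the 17, 10 were under the background mark on all arrays, Slc25a33 and Polg among them.

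Upstream of the regulators the means stood close together. Kinases and factors that act on Ppargc1a, such as AMPK and calcium signaling proteins, gave 13 of 24 higher with a median of 0.0083 (without control 7, 12 of 24 and -0.0016; with arrays centred on their median, 19 of 24), led by the AMPK subunits Prkab2 (0.19) and Prkab1 (0.15) and the lysosomal factor Tfeb (0.24). Prkab1 was under the background mark on all arrays, and Tfeb was above it on 7. Nuclear proteins that work with PGC-1 gave 10 of 19 higher with a median of 0.051 (without control 7, 10 of 19 and 0.013; with arrays centred on their median, 13 of 19). Gabpb1, the partner subunit of Gabpa, differed by -0.16 (-0.10 without control 7), the deacetylase Sirt1 by 0.13, and the lipid receptor Pparg by -0.55. Of the 19, 8 were under the background mark on all arrays, Gabpb1 among them, and Pparg was above it on 1. Pparg is also an adipocyte factor, and the adipocyte markers here, 8 measured, had a list mean of 7.23 to 11.92 in control and 7.34 to 10.64 in HMB, highest in control 7 and HMB 7. Their part in the value of Pparg, which was -0.11 without control 7, was not tested. Over the 6 lists, of 17, 23, 37, 19, 24 and 18 measured genes, limma called 0 after adjustment and 2 before it, Slc25a33 and Tomm40. Across all 19505 genes it called 0 (0%) after adjustment and 885 (4.54%) before it.

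Between mice, regardless of diet, the regulators were compared pair by pair to ask whether they vary together. Of 36 pairs, 25 had a Pearson r above 0 over the 14 arrays, with a median of 0.21, and 0 passed a permutation test after Benjamini-Hochberg adjustment over 36 (0 before it as well). The 3 highest were all among the mitochondrial factors: Tfb1m with Tfb2m (r = 0.52, permutation p = 0.0619; Spearman's rho = 0.50, p = 0.0701), Tfam with Tfb2m (r = 0.50, p = 0.0644; rho = 0.48, p = 0.0896) and Tfam with Polrmt (r = 0.49, p = 0.0789; rho = 0.28, p = 0.328), each with an adjusted p of 0.535 for r and 0.811 for rho. With each array centred on its median the first and second gave r = 0.75 and r = 0.77, both with an adjusted permutation p of 0.0392. Centring raised r in general: 33 of the 36 pairs were then above 0, with a median of 0.40. Without the 2 mice farthest from the median of the first gene named, the 3 pairs gave r = 0.31, 0.37 and -0.014, so the third rested on HMB 4 and control 7. Ppargc1a with Ppargc1b gave r = -0.12 (permutation p = 0.672; rho = -0.25, p = 0.383). Ppargc1a with Tfam gave r = 0.13 (permutation p = 0.656; rho = 0.20, p = 0.49996), made of 0.91 within control (exact permutation p = 0.00516, n = 7) and -0.74 within HMB (exact permutation p = 0.0323, n = 7). These within-diet p-values are not adjusted over the pairs. After adjustment 0 pairs passed within control and 0 within HMB. HMB 4 had both the highest Ppargc1a and the lowest Tfam of all mice. With arrays centred on their median, r of this pair over the 14 arrays was 0.52. The difference between the diets was not tested.

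Each regulator was then set against the mean of 36 PGC-1 and ERR targets (Perm1, itself a regulator, excluded) and against the mean of 9 slow fibre markers, 18 relations in all. Esrrg gave the only relations that passed. Its r with the slow fibre mean was 0.84 (permutation p = 0.00012, adjusted p = 0.00108; Spearman's rho = 0.87, p = 9.0e-05, adjusted p = 0.00081), with r = 0.82 within control (exact permutation p = 0.0248, n = 7) and 0.87 within HMB (exact permutation p = 0.0117, n = 7). Without HMB 7 and HMB 4, the mice farthest from its median, r was 0.78, and without control 7 it was 0.87. Each of the 9 markers followed it, from r = 0.72 for the tropomyosin Tpm3 to r = 0.88 for the myosin light chain Myl3. The slow fibre marker RNA itself differed widely between mice: Myh7, the slow myosin heavy chain, was at 4.30 to 13.81 in control and 5.34 to 15.26 in HMB. Control 2, lowest in Myh7, was also lowest in Esrrg. The lowest Myh7 values (control 2 and HMB 3) lay under the median of the negative controls of their arrays (6.25 and 6.33). Esrrg was above the background mark on 3 of the 14 arrays. In whole muscle RNA, fewer slow fibres and less RNA per fibre cannot be told apart.

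Esrrg followed the target mean as closely, with r = 0.88 (permutation p = 3.0e-05, adjusted p = 0.00054; rho = 0.86, p = 9.0e-05, adjusted p = 0.00081), r = 0.93 within control (exact permutation p = 0.00357, n = 7), r = 0.89 within HMB (exact permutation p = 0.00694, n = 7), 0.84 without HMB 7 and HMB 4 and 0.91 without control 7. Several of those targets, among them Fabp3 and Mb, are themselves rich in slow and oxidative fibres. The 4 brightly measured genes whose pattern was most like that of Esrrg, after the diet means were subtracted and chosen after this relation was seen, were the myosin regulatory light chain Myl12a (r = 0.96 over 14 arrays), the fatty acid transporter Slc27a1 (0.94), Clip4 (0.93) and Coq8a, needed for coenzyme Q synthesis, (0.93); these r values are descriptions, picked from 3644 genes.

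**Figure D4:**
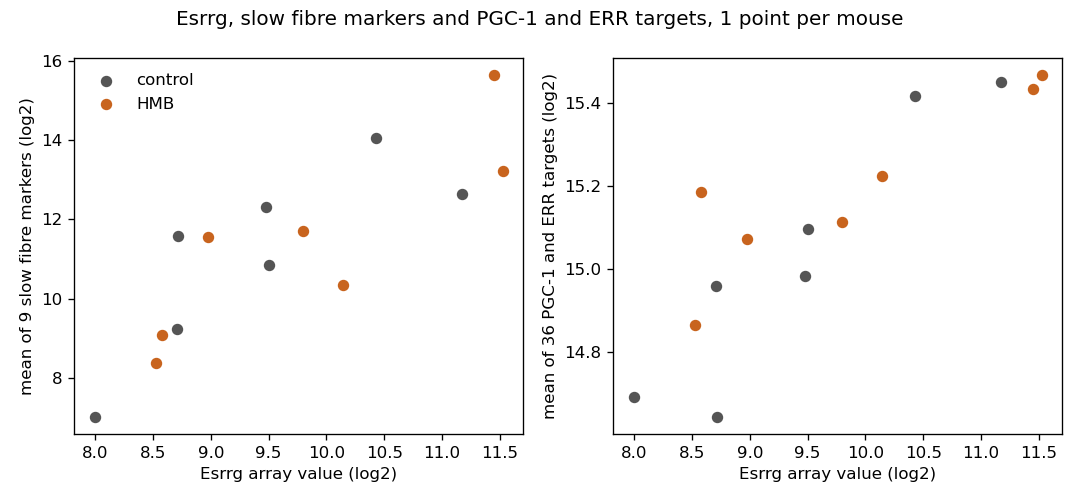
Esrrg array value (log2, horizontal) against the mean of 9 slow fibre markers (left) and the mean of 36 PGC-1 and ERR targets (right), both log2, 1 point per mouse (grey control, orange HMB). Mice with more Esrrg have the higher means in both panels (r = 0.84 and r = 0.88 over 14 mice); control 2 is at the left end and HMB 7 and HMB 4 are at the right.

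Ppargc1a stood otherwise. Its r with the slow fibre mean was 0.18 (permutation p = 0.532, adjusted p = 0.737; rho = 0.27, p = 0.355), and with the target mean 0.62 (permutation p = 0.0170, adjusted p = 0.102; rho = 0.63, p = 0.0177, adjusted p = 0.0901). Within control this was 0.67 (exact permutation p = 0.110, n = 7) and within HMB 0.42 (exact permutation p = 0.348, n = 7), without control 7 it was 0.45, and without control 7 and control 3, the farthest mice, 0.40. With each array centred on its median, r with the target mean was 0.75 for Ppargc1a and 0.77 for Esrrg. With the slow fibre mean, centring gave 0.017 for Ppargc1a and 0.82 for Esrrg. Without centring, all 36 targets had r above 0 with Ppargc1a, from 0.19 to 0.73 for the complex I subunit Ndufb5. Whether the relations of Esrrg and Ppargc1a to either mean differ was not tested.

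The gene most like Ppargc1a was Alas1, the first enzyme of heme synthesis and a known PGC-1α target in liver, counted above with import and chaperones. Among 3643 brightly measured genes it had the highest r, 0.94 over 14 arrays with the diet means subtracted (0.95 without control 7), and it was followed by the Z-disc protein Pdlim5 (0.93), the NAD-forming enzyme Nampt (0.87) and Sdhaf2 (0.87), an assembly factor of complex II. Alas1 was at 14.73 to 15.45 in control and 15.05 to 15.67 in HMB, a difference of 0.22 (limma adjusted p = 0.990). For Tfam the leading genes were Pcgf5 (0.89), Rprd1a (0.88), the ubiquitin ligase Ube3a (0.86) and Nomo1 (0.82), again as descriptions picked from 3644 genes.

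The relations of the other regulators did not pass after adjustment, and those below moved with the mice included. Polrmt had an r of -0.55 with the slow fibre mean (permutation p = 0.0398, adjusted p = 0.179; rho = -0.62, p = 0.0200, adjusted p = 0.0901), -0.50 within control (exact permutation p = 0.253, n = 7), -0.74 within HMB (exact permutation p = 0.0562, n = 7), -0.77 without control 7 and -0.74 without control 7 and HMB 3, the mice farthest from its median. Gabpa had an r of 0.45 with the target mean (permutation p = 0.106, adjusted p = 0.272; rho = 0.50, p = 0.0725), 0.43 within control, 0.60 within HMB, 0.83 without control 7, in which the highest Gabpa met the lowest target mean, and 0.91 without control 7 and HMB 5. Tfb1m had an r of 0.28 with the target mean (permutation p = 0.323, adjusted p = 0.582; rho = 0.24, p = 0.417), made of 0.79 within control (exact permutation p = 0.0361, n = 7) and -0.87 within HMB (exact permutation p = 0.0121, n = 7), and 0.16 without control 5 and control 7. The difference between those diets was not tested, and the p-values within diets are not adjusted.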

How the data were processed

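The 14 arrays (Affymetrix Clariom S, biotin-labelled cDNA from total RNA) were grouped by title, 7 control and 7 HMB. The authors deposited 1 table of normalized values, read as log2 from their range; how background, probe summaries and normalization were handled is, in the sources used here, not given. The label text on extraction names tumor although the tissue field names muscle. Of 22206 gene probesets, 19572 with 1 gene symbol in the platform annotation were kept, 2634 had no symbol here and 0 had several. Probesets of 55 genes were averaged, giving 19505 genes; each measured regulator had 1 probeset. No filter on dim genes was applied. For arrays the number of mice limits the precision.

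The diets were tested on every gene with limma 3.58.1 under R 4.3.3 (moderated linear model, two-sided, Benjamini-Hochberg adjustment over all genes). Correlations used Pearson's r and Spearman's rho with 100000 permutations, or all 5040 orders within a diet (two-sided, Python 3.11.15, scipy 1.17.1), and both steps were tested on simulated data. No batch is given in the labels. The members and lists were chosen with earlier results of these data known. Besides all members, the text names the 3 genes of smallest p of each list and the 4 genes most like Ppargc1a and Tfam (Esrra was not measured); Alas1, Fabp3, Mb, Ndufb5 and the genes like Esrrg were named or described further after their values were seen, as were the slow markers of lowest and highest r and Myh7. Alternatives were renewed quantile normalization, median centring, filters on dim genes, the brightest probeset, all probesets, a trended robust prior, array weights, a replicate block, the methods' t-test and leaving out each array. Replicate numbers were not used as pairs in the reported comparison. Deviations of same-numbered arrays had r of -0.075 to 0.12, which does not exclude a pairing.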

Additional observations from a re-analysis of the deposited data

Results flagged for a closer look

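In 2 of 40 groups of 7 values examined, 1 mouse lay far from the rest, where chance alone gives about 1 in 20. Polrmt in control 7 was at 7.40, with the other controls at 8.48 to 9.25. Tfam in HMB 4 was at 10.57, with the other HMB mice at 11.09 to 11.47. Control 7 also had the high B cell mean, and HMB 4 the highest slow fibre mean (15.63); the part of either in these values was not tested.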

How the results depend on the processing

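For all 9 regulators limma called 0 under every alternative, and 0 genes of all passed in any (798 to 1050 at an unadjusted p under 0.05). The count of regulators with a higher mean in HMB was 5 in the reported comparison, 8 with arrays centred on their median, 7 with array weights, and 5 to 8 with single arrays left out. Centring turned the sign of Gabpa (0.059), Tfam (0.060) and Tfb1m (0.050), and array weights that of Gabpa (0.0098) and Tfam (0.015). With single arrays left out the sign turned for Ppargc1b (-0.18 to 0.011), Nrf1 (-0.036 to 0.12), Gabpa (-0.057 to 0.031), Tfam (-0.056 to 0.094) and Tfb1m (-0.089 to 0.063), while Ppargc1a (0.017 to 0.16), Esrrg (0.15 to 0.72), Tfb2m (0.11 to 0.18) and Polrmt (0.048 to 0.36) stayed above 0. The cause was not tested. Centring also brought 2 of 36 pairs of regulators past the adjusted threshold. The replicate block left 5 of 9 regulators higher and 0 genes past the adjusted threshold (958 before it), and the methods' t-test gave 0 genes (853 before adjustment). Ppargc1b, Tfb1m and Polrmt were under the background mark on all arrays, and Esrrg was above it on 3 of 14, which limits what their values can show.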
